A study of Mus musculus with 6 samples.

Results

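Secreted and membrane proteins that bind, cut or reshape tissue matrix were followed across spinal cord immune cells in experimental autoimmune encephalomyelitis (EAE), through 10 genes chosen by symbol: *Spp1*, *Gpnmb*, *Lgals3*, *Mmp12*, *Mmp14*, *Timp1*, *Timp2*, *Adam8*, *Hpse* and *Acp5*. All 10 were found among the 38293 gene IDs listed in each of 6 libraries. EAE is a mouse model of multiple sclerosis in which immunization against a myelin peptide brings blood monocytes into the spinal cord, where they meet the resident macrophages, the microglia. Each library held RNA 3′ ends of single CD11b+ cells (CD11b marks myeloid cells) sorted from the spinal cord of C57BL/6 mice aged 10 weeks after staining with 10 µM DCFDA, a dye that fluoresces once oxidized by reactive oxygen species (ROS). The 3 groups, of 2 libraries each, were dye-negative (ROS-) cells of healthy mice, dye-negative cells at EAE onset (score 1, MOG35-55 immunization) and dye-positive (ROS+) cells at the same stage. The labels do not say whether replicate libraries came from separate or pooled animals, so p-values measure the spread between these libraries, which may be technical. Healthy ROS+ cells were not analysed here, so disease was compared in ROS- cells.

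The members act at different points of matrix turnover. Osteopontin (*Spp1*) is a secreted matrix protein that binds CD44 and integrins, *Gpnmb* encodes a glycoprotein of lysosomes and the surface of lipid-laden macrophages, and galectin-3 (*Lgals3*) binds sugar chains. Macrophage elastase (*Mmp12*), membrane-type 1 matrix metalloproteinase (*Mmp14*) and ADAM8 (*Adam8*) cut matrix or cell-surface proteins, and heparanase (*Hpse*) cuts heparan sulfate. TIMP-1 and TIMP-2 (*Timp1*, *Timp2*) inhibit metalloproteinases, and TIMP-2 also helps MMP14 to activate pro-MMP2. Tartrate-resistant acid phosphatase (*Acp5*) can dephosphorylate osteopontin and is best known from osteoclasts, the bone-resorbing relatives of macrophages.

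On the mouse genome (GRCm38), *Spp1* lies at chr5:104435118-104441050 on the plus strand, *Mmp12* at chr9:7344381-7369499 on the plus strand and *Acp5* at chr9:22126727-22135711 on the minus strand, each as a protein-coding gene. Sequences upstream of annotated starts of these genes, which were all higher in the same macrophage states below, are shown because they hold short motifs of factor families known from macrophages or osteoclasts. They are from RefSeq, build GRCm38.p6, 5′ to 3′ on the gene's strand, with the motifs in capitals:

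Spp1, chr5:104434961-104435110: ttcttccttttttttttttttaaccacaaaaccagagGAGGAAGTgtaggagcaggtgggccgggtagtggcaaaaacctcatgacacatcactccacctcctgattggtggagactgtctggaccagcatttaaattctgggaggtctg
Mmp12 internal start, chr9:7347224-7347373: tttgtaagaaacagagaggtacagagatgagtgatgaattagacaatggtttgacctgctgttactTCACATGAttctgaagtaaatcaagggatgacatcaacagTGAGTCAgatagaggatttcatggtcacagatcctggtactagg
Mmp12 first start, chr9:7344298-7344327: ccacttcacccACTTCCTCttccaagactc
Acp5 internal start, chr9:22130671-22130700: aagtccagtgcTCACATGAcccaaggggag

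The *Spp1* sequence and the one at the first *Mmp12* start hold GAGGAAGT (in *Mmp12* on the other strand, ACTTCCTC), a sequence of the type bound by the macrophage factor PU.1. The one at the internal *Mmp12* start holds TGANTCA, the AP-1 motif, and, like the *Acp5* one, TCACATGA, the M-box bound by the Mitf family. Both strands were searched in the 150 bases before each of 32851 annotated starts: GAGGAAGT was found in 1.63%, TGANTCA in 4.24% and TCACATGA in 0.563%. The 14 windows of the members held them in 2, 1 and 2 cases. The motifs were chosen after the sequences were seen, a match is a run of letters and not a measured site, and 3′ ends do not tell which start was used.

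The files held 9079 barcodes, against 8701 cells in the study's own description, and 9078 were kept; library totals ran from 915197 to 23407825 UMIs (unique molecular identifiers, 1 per captured RNA molecule). Fixed marker lists that hold no member classed 2734 cells as microglia (1709 and 189 healthy, 544 and 241 EAE ROS-, 31 and 20 EAE ROS+) and 5393 EAE cells as monocyte-derived (756 and 1029 ROS-, 1530 and 2078 ROS+). Another 446 EAE cells carried both sets of markers, at a median of 13575.5 UMIs against 6923 in monocyte-derived cells and 6136 in microglia, and entered neither class. In the 2nd healthy library, 144 of 202 cells held an endothelial marker UMI, and those markers summed to 981 CPM (UMI counts of a gene scaled to a common library total) against 27.3 in the 1st. Some 84 cells shared their barcode with a cell of another library.

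In the whole ROS- sort, 9 of the 10 members were higher in EAE than in healthy libraries. Levels here are CPM over all cells of a library. The healthy libraries held 0 cells classed as monocyte-derived, against 756 and 1029 in EAE ROS-. More cells of a type and more RNA per cell therefore cannot be told apart in these levels. *Lgals3* was at 25.0 and 9.83 CPM in the healthy libraries and 1818 and 2879 in EAE ROS-, and *Spp1* at 19.9 and 52.4 against 419 and 311. *Mmp14* was at 19.9 and 14.2 against 108 and 129 CPM, *Adam8* at 0.903 and 4.37 against 22.0 and 40.4, and *Mmp12* at 3.61 and 0 against 35.4 and 121. Healthy and EAE ROS- libraries did not overlap for these 5 genes, nor, in the same direction, for 23.1% of all genes (49.7% in the other).

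The other members that rose were close to or at no UMI in healthy cells. No *Hpse* or *Timp1* UMI was found among 5347151 of the healthy libraries. Against a floor of 3 counts over that group, *Hpse* was at least 71.3-fold higher in EAE ROS- cells (37.8 and 43.0 CPM) and *Timp1* at least 52.3-fold higher (10.9 and 53.8 CPM). *Gpnmb* had 1 healthy UMI and reached 95.3 and 109.5 CPM, a ratio of 542 (95% counting interval 97.2 to 21426). *Acp5* had 2 healthy UMIs and reached 73.3 and 146 CPM, a ratio of 280.0 (77.4 to 2313). Floors and intervals cover counting error only.

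In edgeR's quasi-likelihood test with Benjamini-Hochberg adjustment, 9 members were higher in EAE ROS- than in healthy ROS- cells and none was lower, while 34% of all genes were called, 19.9% higher and 14% lower. The log2 fold change was 7.41 ± 0.49 (SE) for *Lgals3* (adjusted p = 1.8e-05), 3.96 ± 0.42 for *Spp1* (0.00020), 3.22 ± 0.26 for *Mmp14* (4.3e-05), 4.77 ± 0.60 for *Adam8* (0.00045) and 5.30 ± 0.93 for *Mmp12* (0.0026). The test scaled libraries by the trimmed mean of M values (TMM), which puts these folds 0.56 higher in log2 than plain CPM does. Without the 1st healthy library, *Mmp12* and *Timp1* no longer passed (adjusted p = 0.050 and 0.17).

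*Timp2* was the member that did not rise. It was at 598 and 581 CPM in healthy libraries, 349 and 118 in EAE ROS- and 72.3 and 30.5 in EAE ROS+, so all 4 EAE libraries were below both healthy ones. Of all genes, 49.7% had both EAE ROS- libraries below both healthy ones and 23.1% had both above. Its log2 fold change in EAE ROS- against healthy cells was -0.87 ± 0.49 (adjusted p = 0.20), and it passed without EAE ROS- library 1 (-1.77, adjusted p = 0.0079) and without the filter on low counts (-0.79, adjusted p = 0.011). The 11 microglial markers ran alongside, summing to 12566 and 14159 CPM in healthy libraries, 2056 and 1032 in EAE ROS- and 272 and 156 in EAE ROS+. In sums over all cells, fewer cells of a type and less RNA per cell cannot be told apart.

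**Figure D1:**
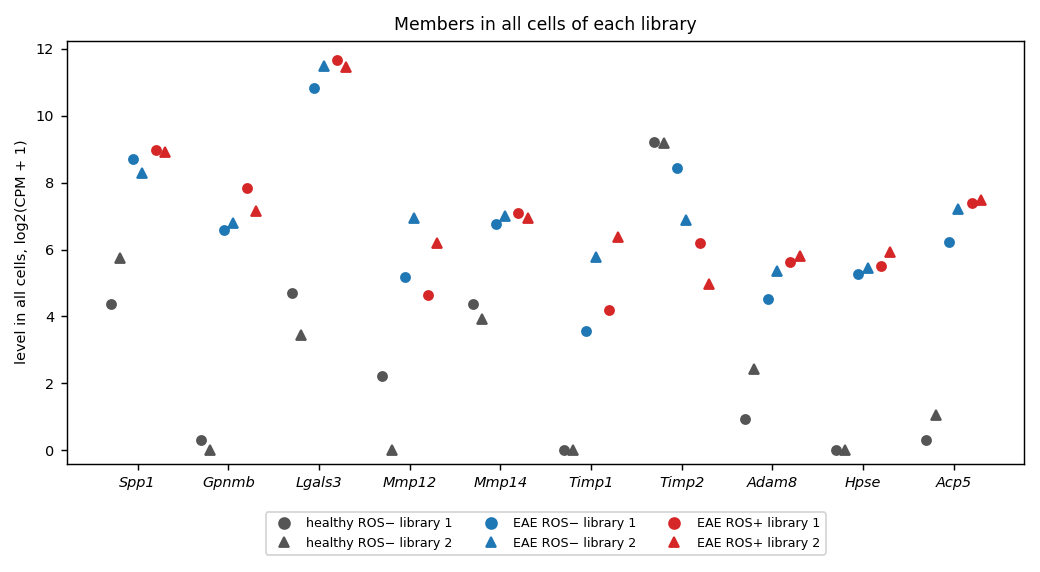
Level of each member over all cells of each library, as log2(CPM + 1), by group (colour) and library number (symbol). All members but *Timp2* sit higher in the 4 EAE libraries than in both healthy ones, and *Timp2* sits lower.

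Within microglia alone, 8 of the 9 members that could be tested were higher in EAE ROS- than in healthy ROS- cells and none was lower, while 28.6% of genes were called, 16.2% higher and 12.5% lower. *Spp1* was at 20.1 and 58.3 CPM in healthy microglia and 618 and 242 in EAE ROS- microglia (log2 fold change 3.89 ± 0.54, adjusted p = 1.7e-05). *Lgals3* was at 24.9 and 9.92 against 662 and 429 CPM (4.99 ± 0.42, 2.6e-08). *Mmp14* was at 19.8 and 14.9 against 78.0 and 63.3 CPM (2.18 ± 0.29, 8.7e-06). The libraries of the 2 groups did not overlap for these 3 genes, nor, in the same direction, for 24.1% of all genes (41.8% in the other).

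*Gpnmb* was at 32.3 and 26.8 CPM in EAE ROS- microglia against 1 UMI in 5190962 of healthy microglia, a ratio of 161 (95% counting interval 28.6 to 6408). *Acp5* was at 23.8 and 35.8 CPM against 2 UMIs, a ratio of 68.4 (18.6 to 569). *Hpse*, at 19.2 and 12.7 CPM against no UMI, was at least 30.7-fold higher. *Adam8* (6.05 and 9.69 against 0.912 and 3.72 CPM, adjusted p = 0.019) and *Mmp12* (11.3 and 12.7 against 3.65 and 0 CPM, adjusted p = 0.0068) passed on 43 and 73 EAE UMIs. Both calls were lost without EAE ROS- library 1 (adjusted p = 0.10 and 0.12) or library 2 (0.22 and 0.071), and *Adam8* also without the 1st healthy library (0.48).

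*Timp2*, the inhibitor rich in microglia, was at 599 and 592 CPM in healthy microglia and 702 and 455 in EAE ROS- microglia, a log2 fold change of 0.17 ± 0.30 (adjusted p = 0.71), which turned to -0.37 without EAE ROS- library 1. *Timp1* had 24 UMIs in EAE ROS- microglia and none in healthy microglia, too few for the filter on low counts.

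Monocyte RNA was also present in cells classed as microglia in EAE. The 13 monocyte markers, none at 0 in EAE ROS- microglia, summed to 1082 and 920.4 CPM there, to 1129 and 1252 in EAE ROS+ microglia and to 65.2 and 38.5 in healthy microglia, against 9310 to 16205 in monocyte-derived cells. The level in microglia was therefore set against that in monocyte-derived cells of the same library, for members and markers alike. For the markers, this percentage ran from 7.95 to 29.7 in EAE ROS- library 1 and from 2.96 to 24.6 in library 2.

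*Timp2* at 951% and 1407%, *Spp1* at 241% and 71.1%, *Mmp14* at 61.0% and 40.8% and *Hpse* at 36.3% and 25.1% lay above all 13 markers in both libraries. *Lgals3* (24.7% and 12.5%), *Gpnmb* (26.8% and 22.1%), *Acp5* (24.3% and 21.0%), *Adam8* (17.7% and 21.5%), *Mmp12* (18.4% and 8.77%) and *Timp1* (17.9% and 8.57%) lay within the range of the markers. The part of monocyte RNA in these 6 microglial levels was not tested.

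Microglial *Spp1* was uneven over cells. In EAE ROS- library 1, the richest 10% of microglia held 59.95% of all *Spp1* UMIs and the richest cell held 361, and in library 2 the richest 10% held 88.6%. Microglia with high UMIs of cell division genes were at 1266 and 429.9 CPM *Spp1* (68 and 57 cells), against 201 and 12.2 CPM in those with high immediate-early genes (49 and 17 cells) and 530.4 and 183 CPM in those high in neither (427 and 167 cells). In healthy microglia, the 501 and 54 cells with high immediate-early genes were at 40.3 and 131 CPM and the 1205 and 133 cells high in neither set at 4.83 and 19.5 CPM.

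Monocyte-derived cells and microglia of the same 4 EAE libraries differed in 9 of 10 members, with the library as a block in the edgeR fit. Of all genes 39% were called. Among the members, 8 were higher in monocyte-derived cells, beside 20.2% of genes, and 1 was lower, beside 18.7%. The log2 difference was 3.28 ± 0.30 for *Timp1* (adjusted p = 8.7e-11), 2.85 ± 0.18 for *Lgals3* (1.0e-14), 2.84 ± 0.29 for *Mmp12* (1.1e-09) and 2.46 ± 0.19 for *Gpnmb* (2.9e-12). *Acp5* was 6.05-fold higher (adjusted p = 1.6e-12). The log2 difference was 2.17 ± 0.28 for *Adam8*, 1.86 ± 0.22 for *Hpse* and 1.27 ± 0.18 for *Mmp14*.

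*Timp2* went the other way, with a log2 difference of -3.22 ± 0.16 (adjusted p = 6.6e-17). In the order ROS- libraries 1 and 2, then ROS+ 1 and 2, which is kept below, it was at 73.8, 32.4, 53.2 and 24.6 CPM in monocyte-derived cells and at 702, 455, 587 and 296 in microglia. The 2 TIMPs were higher in opposite classes: *Timp1* was at 19.1, 60.8, 18.7 and 89.0 CPM in monocyte-derived cells and at 3.43, 5.22, 3.01 and 0 in microglia.

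*Spp1* was the member whose class difference depended on the library. It was at 256, 340.4, 519.8 and 467 CPM in monocyte-derived cells and 618, 242, 509 and 163 in microglia, a log2 difference of 0.36 ± 0.24 (adjusted p = 0.26). Microglia were higher in ROS- library 1 and lower in the other 3. Without that library, monocyte-derived cells were higher by 0.85 (adjusted p = 1.2e-05), while without ROS+ library 2 the difference was -0.0051.

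**Figure D2:**
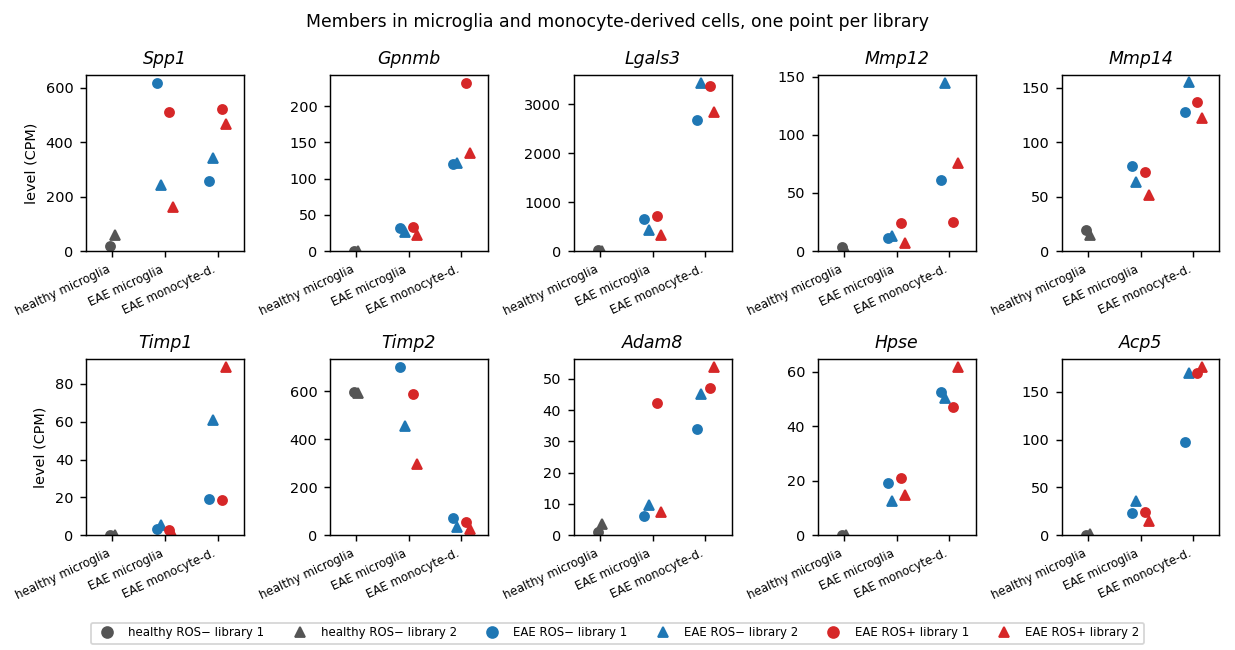
Level of each member in CPM, 1 point per library, in healthy microglia, EAE microglia and EAE monocyte-derived cells. *Timp2* is highest in microglia, *Spp1* overlaps between the EAE classes, and the other members have higher means in monocyte-derived cells.

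Partner genes of the members moved in part with them. In EAE against healthy ROS- microglia, 16.2% of all genes were called higher and 12.5% lower. Of 8 receptor chains for osteopontin, 3 were higher in EAE than in healthy ROS- microglia, *Cd44* (log2 fold change 4.46), *Itga4* (3.92) and *Itga5* (1.47), and 2 were lower, *Itga9* (-3.76) and *Itgb3* (-2.28); the list median was -0.064 and that of all genes -0.033. Of 5 testable matrix and heparan sulfate genes, 4 rose and none fell, among them fibronectin (*Fn1*, 4.44), *Tgfbi* (3.57) and syndecan-3 (*Sdc3*, 2.96). Of 4 testable genes of galectins and a galectin-binding protein, 3 rose: *Lgals1* (3.83), *Lgals9* (1.17) and, for the binding protein, *Lgals3bp* (3.37). Of 6 testable other metalloproteinases, *Mmp2* (1.37) and *Adam9* (1.11) rose and *Adamts1* fell (-3.75). Of 3 testable osteoclast-associated genes, the RANK receptor gene *Tnfrsf11a* fell (-0.96) and none rose, and of 3 testable inhibitors *Slpi* (4.81) and *Spint1* (1.54) rose. The monocyte RNA in EAE microglia described above may enter these partner genes as well, and its part was not tested.

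Between the ROS gates of EAE cells, no member passed the threshold in the fit without replicate numbers. Fits with the replicate number as a block called some members and are given in the closing section. Over all cells, *Gpnmb* was at 95.3 and 109.5 CPM in EAE ROS- and 228 and 142 in EAE ROS+ (log2 difference 1.03 ± 0.26, adjusted p = 0.093). *Spp1*, *Adam8*, *Hpse* and *Acp5* also had both ROS+ libraries above both ROS- ones, and *Timp2* had both below (-1.99 ± 0.50, adjusted p = 0.089). Of all genes, 9.96% had both ROS+ libraries above and 38% had both below. edgeR called 0 of 10 members, beside 2.16% of genes (0.125% higher, 2.04% lower). In the same fit 5 members had an unadjusted p under 0.05, and DESeq2 called 2, *Gpnmb* and *Timp2*. For the unadjusted and DESeq2 counts, the share of all genes is not given, so these counts do not single out the members. Without EAE ROS- library 2, the log2 difference was -2.54 for *Timp2*, 1.45 for *Acp5*, 1.43 for *Adam8* and 2.39 for *Timp1*.

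The gates held different cells, and the members were therefore compared within classes. In monocyte-derived cells, *Spp1* was at 256 and 340.4 CPM in ROS- and 519.8 and 467 in ROS+ libraries, an edgeR log2 difference of 0.76 ± 0.23 (unadjusted p = 0.012, adjusted p = 0.999). *Gpnmb* (120.4 and 121 against 232 and 135 CPM) and *Adam8* (34.1 and 45.1 against 47.1 and 53.8 CPM) also did not overlap between gates, while 13.5% of all genes had both ROS+ libraries above both ROS- ones and 18.4% had both below. edgeR called 0 members and 0% of 11739 genes; *Spp1* was 1 of 486 genes with an unadjusted p under 0.05, and DESeq2 called no member. Leaving out a ROS+ library gave 1 call each, *Timp1* at 1.15 without library 1 and *Mmp12* at -1.99 without library 2.

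In microglia, ROS+ sums rested on 31 and 20 cells, and edgeR called 0 of 9 members and 0% of genes, with 1 member at an unadjusted p under 0.05 and none called by DESeq2. That member was *Adam8*, at 6.05 and 9.69 CPM in ROS- and 42.2 and 7.41 in ROS+ microglia (log2 difference 2.07 ± 0.71, adjusted p = 0.78). The high ROS+ value rests on 14 UMIs, and without that library the difference was -0.13. How many other genes in microglia fell below the unadjusted cutoff is not given, so it does not single out *Adam8*.

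A test of whether the gate difference itself differed between classes called 0 members, beside 0.0167% of genes. DESeq2 called 0, and 3 members had an unadjusted p under 0.05. How many other genes fell below that unadjusted cutoff is not given, so the count of 3 does not single out the members. The log2 value of this test, monocyte-derived minus microglia, was 1.12 ± 0.48 for *Spp1*, -1.60 ± 0.56 for *Adam8* and -1.68 ± 0.74 for *Mmp12*. *Spp1* passed (2.09) without ROS- library 2, and the others turned to 0.71 and 0.72 without ROS+ library 1.

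*Timp1* and *Mmp12* differed between libraries by replicate number. In monocyte-derived cells, *Timp1* was at 60.8 and 89.0 CPM in the libraries numbered 2 and 19.1 and 18.7 in those numbered 1, and *Mmp12* at 145 and 75.7 against 61.4 and 25.0. Within each number, *Mmp12* was lower in the ROS+ library. In 5 of 6 states measured in all 4 libraries (defined next), both libraries numbered 2 were higher than both numbered 1 for each of these genes. Over all monocyte-derived cells, *Acp5* was also higher in those numbered 2, narrowly, at 170.1 and 176.2 against 98.0 and 169.5 CPM. The share of all genes that separate by number is not given, so this is a description. *Timp2* went the other way, at 32.4 and 24.6 against 73.8 and 53.2 CPM, as did summed microglial markers in the same cells (128 and 87.6 against 249 and 145 CPM). The labels name no batch for these numbers.

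Members also differed between states of the monocyte-derived cells. Each of 7 states has a fixed marker list that holds no member, and a cell was put into the state whose list's share of its UMIs was highest relative to the mean of the 4 libraries, where it was at least 1.5 times that mean. The other 6 states were compared with the *Ly6c2* state, whose markers (*Ly6c2*, *Plac8* and others) are those of blood monocytes, in 1 edgeR fit over 27 sums with library as a block. The sums come from 4 libraries and are not separate animals, so these p-values describe states within those libraries. How many of all genes have libraries that do not overlap between states is not given. Overlap between states is therefore only described below.

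*Spp1* had the widest range of mean levels relative to its lowest state. In the *Ly6c2* state it was at 48.9, 48.0, 57.4 and 63.1 CPM. In the *Arg1* state, marked by arginase-1, an enzyme of macrophages in wound repair, it was at 1154, 608, 986 and 829 CPM (log2 fold change 4.10 ± 0.28, adjusted p = 8.1e-14). In the *Ms4a7* state, whose list holds *Apoe* and the C1q genes, it was at 338, 722, 675 and 1032 CPM (3.61 ± 0.28, 2.2e-12). Neither state overlapped the *Ly6c2* state.

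Osteopontin RNA was intermediate elsewhere. *Spp1* was at 304, 382, 314 and 562 CPM in the *Nos2* state (inducible nitric oxide synthase, *Inhba* and *Il6*) and at 260.3, 385, 397 and 558 CPM in the *Saa3* state (serum amyloid A3, *Cxcl1* and *Cxcl2*), 2.96 and 2.93 log2 above the *Ly6c2* state. It was at 191, 90.2, 259.7 and 221 CPM in the interferon state (1.85 ± 0.30) and, over the 3 libraries with enough cells, at 60.9, 58.9 and 204 in the MHC class II state (1.09 ± 0.36, adjusted p = 0.058). In the order *Arg1*, *Ms4a7*, *Saa3*, *Nos2*, interferon, MHC class II, *Ly6c2*, neighbours overlapped in 5 of 6 pairs, with a gap between *Nos2* and interferon.

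*Gpnmb* followed a similar order with the *Ms4a7* state on top. It was at 13.04, 24.0, 35.1 and 13.2 CPM in the *Ly6c2* state, 189, 301, 270.4 and 212 in the *Ms4a7* state (3.45 ± 0.31, adjusted p = 9.0e-11) and 187, 204, 219 and 209 in the *Arg1* state (3.36 ± 0.30). It was also higher in the *Saa3* (3.19), *Nos2* (2.73), interferon (2.04) and MHC class II (1.78) states. All 6 neighbouring pairs in its order overlapped.

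Among the proteases, *Adam8* had a single top state. It was at 85.6, 84.0, 67.8 and 89.3 CPM in the *Arg1* state against 9.78, 7.58, 16.4 and 30.4 in the *Ly6c2* state (2.02 ± 0.18, adjusted p = 7.8e-11), and its *Arg1* libraries lay above those of the next state, *Ms4a7* (28.9 to 59.1 CPM). *Mmp12* was at 92.5, 246, 41.9 and 162 CPM in the *Arg1* state against 6.52, 56.9, 4.68 and 8.17 (3.02 ± 0.32, 2.4e-09). These groups overlap, with ROS- library 2 highest in both states, while within each library the *Arg1* state was the higher. *Mmp14* was flatter, at 173, 180.2, 165 and 157 CPM in its top state, *Nos2*, against 71.7, 135, 85.5 and 114 (0.67 ± 0.13, 0.00019); in the *Arg1* state its difference was 0.24 ± 0.13 (0.17).

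*Hpse* was highest in the *Ly6c2* state. It was at 84.7, 65.7, 80.8 and 88.5 CPM in the *Ly6c2* state, 44.0, 40.5, 41.1 and 46.8 in the *Ms4a7* state (-0.87 ± 0.14, adjusted p = 7.0e-06) and 50.9, 42.9, 44.5 and 49.9 in the *Arg1* state (-0.78 ± 0.12), with no overlap with the *Ly6c2* state. It was also lower in the *Saa3* (-0.65), *Nos2* (-0.58) and MHC class II (-0.55) states. The *Nos2* call was lost without ROS+ library 2 (adjusted p = 0.062) and the MHC class II call without any single library (0.078 to 0.15).

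The inhibitors differed from each other again. *Timp2* was highest in the *Ms4a7* state, at 104.3, 75.1, 74.8 and 59.1 CPM against 52.1, 24.0, 23.4 and 17.7 in the *Ly6c2* state (1.44 ± 0.19, adjusted p = 4.1e-07). Microglial markers summed to 272, 116, 193 and 229 CPM there against 199, 88.5, 86.7 and 66.3, and the part of microglial RNA was not tested. *Timp1* was lowest in the *Ms4a7* state, at 10.6, 5.78, 13.2 and 17.2 CPM (-1.42 ± 0.32, adjusted p = 0.0011). In the *Ly6c2* state it was at 6.52 and 8.20 CPM in the libraries numbered 1 and 77.1 and 116 in those numbered 2. Without ROS+ library 2 the *Ms4a7* call was lost (-0.85, adjusted p = 0.18). The *Arg1* call (-0.68 ± 0.25, 0.041) was lost without either library numbered 2 (-0.58 and -0.12, ROS- then ROS+).

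*Acp5* and *Lgals3* were also higher in several states. *Acp5* was at 148, 254, 182 and 279.6 CPM in the *Arg1* state against 32.6, 79.6, 65.6 and 66.3 (1.82 ± 0.16, adjusted p = 4.9e-11), with no overlap, and passed in each state but interferon. *Lgals3* was at 4168, 4203, 4499 and 3537 CPM in the *Nos2* state against 2066, 1709.8, 2402 and 2029 (1.04 ± 0.10, 1.9e-10), again with no overlap.

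In counts, 6 members were higher and 2 lower in the *Arg1* state, where 29.6% of genes were called (14.1% and 15.5%). The *Ms4a7* state had 8 and 2, with 23.8% of genes called (11% and 12.7%), the *Saa3* state 8 and 1, with 24% (11.7% and 12.4%), and the *Nos2* state 7 and 1, with 25.5% (12% and 13.5%). The MHC class II state, where a stricter marker threshold left 1 member called (*Mmp12*), had 3 and 1, with 6.41% (3.33% and 3.08%), and the interferon state 3 and 0, with 8.37% (5.92% and 2.45%). In the *Ms4a7* state, the call of *Lgals3* was lost without either ROS- library, that of *Mmp12* without either ROS+ library and that of *Mmp14* without either library numbered 1. The interferon call of *Lgals3* was lost without ROS- library 2 or either ROS+ library, and the MHC class II call of *Mmp12* without ROS- library 1. These contrasts share the *Ly6c2* sums.

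**Figure D3:**
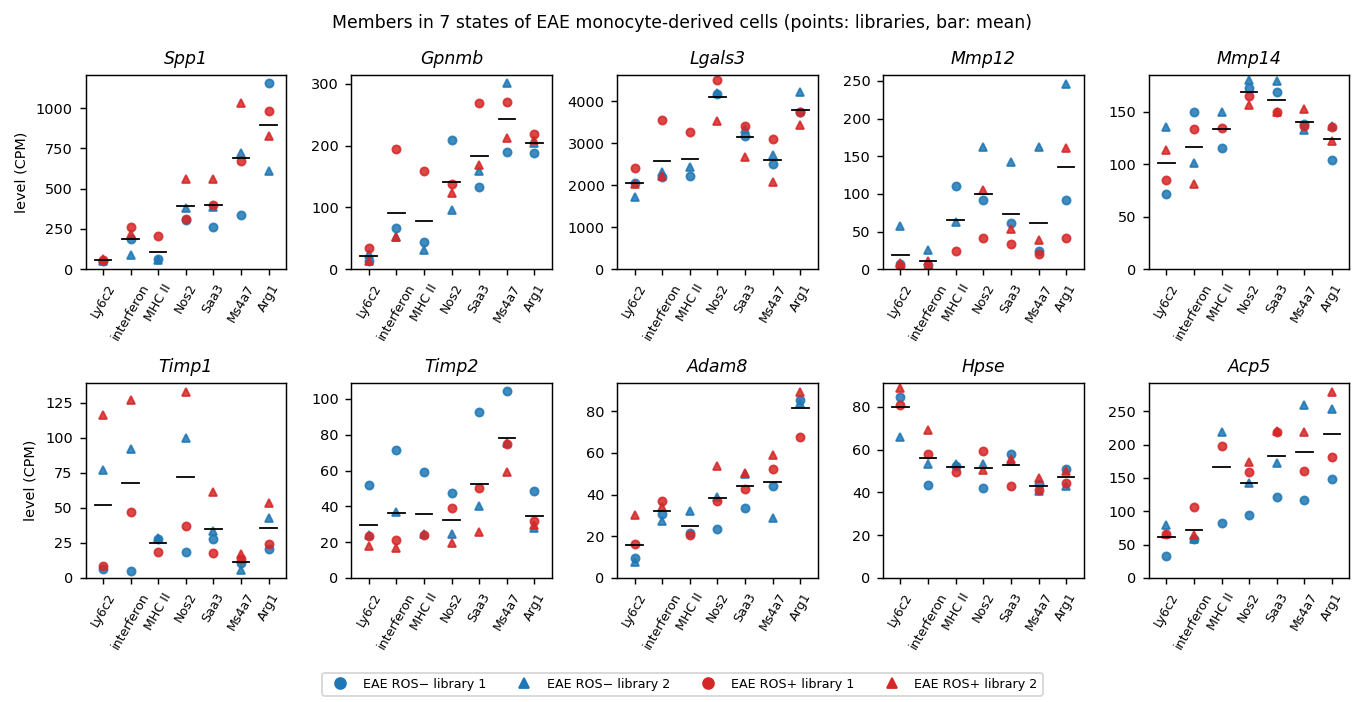
Level of each member in CPM in 7 states of EAE monocyte-derived cells, 1 point per library. *Spp1*, *Gpnmb*, *Adam8* and *Acp5* are lowest in the *Ly6c2* state and have their highest mean in the *Arg1* or *Ms4a7* state, *Hpse* is highest in the *Ly6c2* state, and *Timp1* is higher in both libraries numbered 2 in 5 of 6 states.

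**Figure D4:**
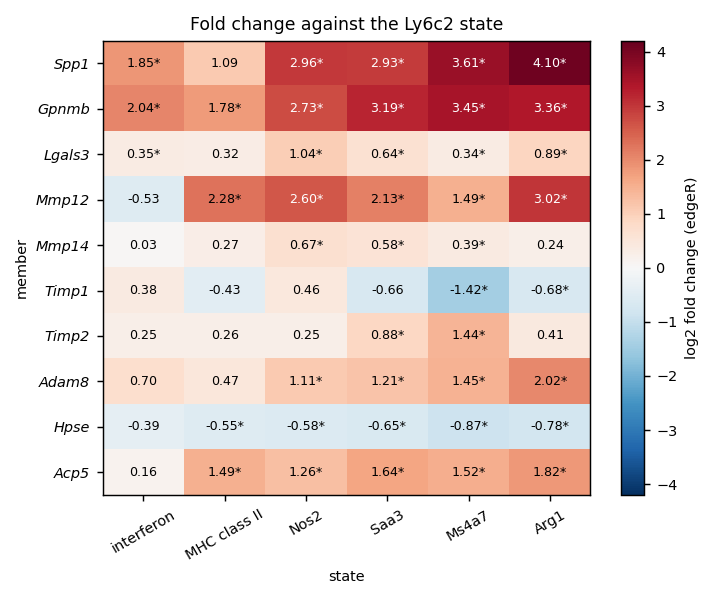
edgeR log2 fold change of each member in 6 states of EAE monocyte-derived cells against the *Ly6c2* state. *Spp1* and *Gpnmb* are above 1 in all 6 states, and *Hpse* is below 0 in all 6.

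Of 6 testable genes known from osteoclasts, 3 rose in the *Arg1* state, where 14.1% of all genes were called higher, and none fell: cathepsin K (*Ctsk*, log2 fold change 3.87), the proton pump subunit *Atp6v0d2* (4.01) and the fusion receptor *Dcstamp* (2.94), with a list median of 1.59 against -0.0076 for all genes. In the *Nos2* state, where 12% of all genes were called higher, 4 of the 6 rose, with a list median of 1.74. Of 8 matrix and heparan sulfate genes 3 rose in the *Arg1* state, syndecan-1 (*Sdc1*, 6.04-fold), *Fn1* (1.17) and *Gusb* (0.71). Of 6 osteopontin receptor chains *Itgb5* rose (0.67) and *Itga4* fell (-0.79), and none of 7 other metalloproteinases was called. In the *Ms4a7* state, where 12.7% of all genes were called lower, all 3 testable protease inhibitor genes fell, among them *Spint1* (-0.98) and *Slpi* (-0.81).

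UMIs of the members were unevenly spread over cells. In the 4 EAE libraries, the richest 10% of monocyte-derived cells for *Spp1* held 70.0% to 85.4% of its UMIs, and 1 cell held 598. The same share was 55.9% to 86.0% for *Gpnmb*, 86.4% to 94.8% for *Mmp12* and 81.5% to 100% for *Timp1*. It was 41.4% to 58.9% for *Acp5*, 33.5% to 42.7% for *Mmp14* and 29.9% to 35.6% for *Lgals3*. Few UMIs per cell also give a high share, and the part of counting was not tested.

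**Figure D5:**
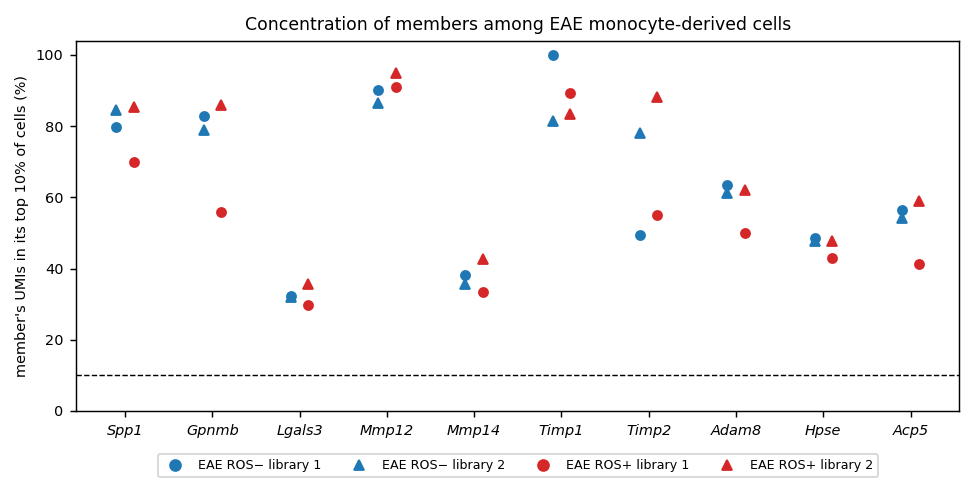
Percent of a member's UMIs held by the richest 10% of EAE monocyte-derived cells for that member, 1 point per library, with a dashed line at 10%, the share if all cells held equal numbers. *Lgals3* and *Mmp14* lie lowest, and *Mmp12* and *Timp1* highest.

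With each cell thinned to 1500 UMIs, 25.0%, 22.7%, 35.3% and 27.6% of *Arg1*-state cells held a *Spp1* UMI, against 11.1%, 5.34%, 3.91% and 9.40% of *Ly6c2*-state cells (55.8%, 50.2%, 67.9% and 54.9% against 28.9%, 19.8%, 28.9% and 22.1% unthinned). In cells marked as T or NK cells, the thinned shares were 20.5% and 12.1% in the ROS- libraries (44 and 33 cells, median 7964.5 and 6710 UMIs). A *Lgals3* UMI was found in 75.0% and 69.7% of the same thinned cells. In the ROS- libraries, the *Ly6c2*-state shares lay below those of the T or NK cells and are not read as expression. The 95% exact intervals of the *Arg1*-state shares there (14.0% to 38.9% and 17.2% to 29.0%) overlapped those of the T or NK cells (9.80% to 35.3% and 3.403% to 28.2%). Whether T or NK cells expressed *Spp1* or carried RNA of other cells was not tested, so their shares are not a known background. Median depths were 7365.5 to 9303 UMIs per cell in the *Arg1* state and 4717 to 6548 in the *Ly6c2* state.

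In thinned monocyte-derived cells, *Acp5* was found in 23.8%, 31.7%, 25.5% and 39.8% of cells with a *Gpnmb* UMI and in 7.99%, 15.4%, 16.3% and 13.5% of cells without one. *Gpnmb* was found in 18.3%, 14.8%, 27.0% and 17.6% of cells with a *Spp1* UMI and in 9.36%, 9.27%, 16.9% and 6.72% of those without. In the thinned T or NK cells of the ROS- libraries, *Acp5* was found in 22.7% and 12.1% and *Gpnmb* in 0% and 15.2%. The shares in library 1 for *Acp5* and in library 2 for *Gpnmb* are thus near those of T or NK cells. Over all thinned monocyte-derived cells of the ROS- libraries, *Acp5* was found in 9.66% and 17.0%, so the T or NK shares are not a floor. These values are given as a description, with no test.

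Over the 27 library-by-state sums, the genes whose log2 CPM ran most like each member are given as a description (Pearson r over sums that share libraries, out of 2370 genes). For *Spp1* they were the fatty acid binding protein gene *Fabp5* (r = 0.92), *Gpnmb* (0.89) and cathepsin B (*Ctsb*, 0.89), and for *Gpnmb* they were *Ctsb* (0.94), the cholesterol exporter gene *Abca1* (0.93) and the lysosomal *Cd68* (0.92). *Adam8* ran most like *Spp1* (0.83), *Acp5* like the ferritin light chain gene *Ftl1* (0.92) and *Lgals3* like annexin A5 (*Anxa5*, 0.85). *Timp1* ran most like oncostatin M (*Osm*, 0.88). Among the genes closest to *Timp2* was *Cx3cr1* (0.76), a chemokine receptor gene rich in microglia. *Mmp12* ran most like *Tmed9* (0.88), *Hpse* like *Pitpna* (0.81) and *Mmp14* like *Gm15056* (0.85).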

How the data were processed

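Per barcode and gene, the deposited values are raw UMI counts of 6 droplet libraries; Cell Ranger 2.0.1, Seurat 3 and R 3.4.2 with build mm10 are named in the submitters' processing notes, without roles. Members and gene lists were chosen with earlier results of these data known.

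Kept cells had a minimum of 200 genes and a mitochondrial share of 10% or less. A cell with 10 or more microglial and monocyte marker UMIs was microglia at a microglial share of 0.5 or more and monocyte-derived at 0.1 or less; cells with 10 or more UMIs of another list left. A state needed a ratio of 1.5 and 3 UMIs. These thresholds were set after the marker distributions were seen; 127 microglia, 489 monocyte-derived and 900 state cells lay near them. Doublets were not called. Sums of 20 or more cells were tested with edgeR 4.0.16 (TMM, filterByExpr minimum count 10, quasi-likelihood F test, adjusted p under 0.05 by Benjamini-Hochberg; R 4.3.3), after a test on simulated data. SE is the absolute log2 fold change over the root of F. Fits held all 3 groups for all cells and for microglia, and the EAE libraries otherwise. CPM are over plain totals. All 10 members are named in the text; other genes are those called, at most 4 a list. Replicate libraries differed by chi-square per degree of freedom of 6.40 to 74.6, above counting noise. Alternatives, among them DESeq2 1.42.0, are in the closing section. Some genes of the lists and of the likeness ranking are not reported here.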

Additional observations from a re-analysis of the deposited data

How the results depend on the processing

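Of 952 recomputed fold changes that the text turns on, 870 kept direction and call, 43 lost a call, 27 gained one and 12 turned sign; of 514 others that were not called and are not printed, 55 had another sign. Of the values that were called, only *Gpnmb* (-0.31) and *Hpse* (0.078) in the MHC class II state turned, under the stricter marker threshold, which left 1 member called there. The ROS difference over all cells, with 0 members called, gave 4 without the low count filter, 2 with DESeq2, 1 with the replicate block and 8 with the replicate block over the EAE libraries only. The share of all genes called is not given for these settings or for leaving out 1 library. Such counts therefore do not single out the members. *Timp2* passed in EAE against healthy cells with the replicate block (-1.08, adjusted p = 0.027). In monocyte-derived cells the same difference gave 1 (*Mmp12*) without the low count filter and 1 with the replicate block (-1.08), and its difference between classes gave 2 (*Adam8* and *Mmp12*) with stricter cells. The same-numbered libraries share only a number in the labels; their deviations correlated at 0.46 over all cells, 0.36 in monocyte-derived cells and 0.12 in microglia, from 2 pairs.

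Leaving out 1 library gave 0 to 4 members over all cells, 0 to 1 in monocyte-derived cells and 0 to 1 for the difference between classes. The *Spp1* class difference was -0.028 with stricter cells and -0.024 with clusters, and -0.0051 to 0.85 leaving out a library. Leaving out a library gave *Timp2* in EAE against healthy microglia -0.37 to 0.50, *Adam8* between gates in microglia -0.13 to 2.56 and between classes -2.19 to 0.71, *Mmp12* between classes -2.77 to 0.72, and *Timp1* between gates -0.73 to 2.39 over all cells and -1.05 to 1.53 in monocyte-derived cells. The *Timp1* call in the *Arg1* state was also lost with DESeq2, stricter cells and no replicate block, that in the *Ms4a7* state with DESeq2 and the 2-state fit, and *Adam8* in EAE microglia with DESeq2 and the stricter marker threshold. Apart from settings that leave out libraries or cells, the cause was not tested. The ROS tests in microglia gave no value with clusters, and the fit over 2 states only was chosen after seeing the data. The number of cells limits the ROS+ microglia, with 31 and 20 cells, above all. Median UMIs per microglial cell were lowest in healthy libraries, at 2205 and 3614. They were 6870 and 4774 in EAE ROS- and 8987 and 6342.5 in EAE ROS+ libraries.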
